A study of Mus musculus with 3 samples.

Results

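The mRNAs of 4 families of splicing proteins were examined in mouse blastocysts, comprising the SR proteins (Srsf genes), the hnRNP proteins (Hnrnp genes), the SF3A and SF3B subunits (Sf3a and Sf3b genes) and the Sm and U1 or U2 particle proteins (Snrp genes). The rule reads the gene symbol and no measured value. Of the 24063 genes in the table, 51 qualified, with 11 SR, 20 hnRNP, 9 SF3 and 11 Snrp genes, and Snrpn was left out by the rule. Gene expression was measured by low-input RNA-Seq in 1 library from C57BL/6 (B6) mice and 2 libraries from non-obese diabetic (NOD) mice, an inbred strain prone to autoimmune diabetes. No embryo was treated. The labels call the material whole blastocyst, whereas the methods of the study describe single inner cell masses (ICMs). Neither source says whether the 2 NOD libraries came from different litters. With a single B6 library, every p value below measures the spread between the NOD libraries and the spread shared across genes, and 1 library against 2 cannot give an exact permutation p below 0.333.

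Pre-mRNA splicing removes introns in a series of RNA-protein complexes. The Sm proteins form a ring around each small nuclear RNA of the U1, U2, U4 and U5 particles, the U1 particle marks the 5′ splice site, and the SF3A and SF3B subunits of the U2 particle hold the branch point. SR proteins mostly bind exonic enhancers and promote the use of nearby splice sites, while hnRNP proteins often bind silencers and oppose them, and both kinds also accompany mRNA out of the nucleus. Many SR and hnRNP genes tune their own output through cassette exons that send the transcript to nonsense-mediated decay.

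The B6 library was the shallowest, with 12505685 counts against 33891715 for NOD 1 and 36171013 for NOD 2, and so had the highest floor, 0.220 CPM for a gene with no read. Markers of blastocyst cells were found in every library, with Pou5f1, Nanog, Cdx2 and Krt18 all above 50 CPM, the read count scaled to library size. Levels of 6 of 7 trophectoderm markers were lower in both NOD libraries than in B6, and their summed level was 2949 CPM in B6 against 1705 and 1581 CPM in NOD. Of 7 ICM markers, 4 were higher and 3 lower in both NOD libraries, with summed levels of 371, 449 and 645 CPM. Of the 4 primitive endoderm markers, Gata6 was lower and Gata4 and Pdgfra were higher in both NOD libraries, while Sox17 was at 0 in B6 and NOD 1, and the summed level was 391 CPM in B6 against 118 and 158 CPM. Leukocyte markers summed to at most 1.03 CPM, with Ptprc, Lyz2, Fcer1g and Cd79a at 0 throughout. Cumulus cell markers summed to between 1.79 and 8.87 CPM, with Has2, Ptx3 and Fshr at 0, and fibroblast markers to between 0.807 and 5.35 CPM, with Col1a2 and Col3a1 at 0. The part of these cell proportions in the results below was not tested, and fewer cells of a type cannot be told apart from less RNA per cell.

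The 5′ flanks of 4 hnRNP genes listed as A/B type are printed because Hnrnpa0 and Hnrnpa1 fell in NOD while Hnrnpa2b1 rose. Each is the stretch of 250 bases before the gene's start in RefSeq (GRCm38.p6), free of annotated exons, on the coding strand and written 5′ to 3′. Capitals mark the CCAAT box (letters CCAAT, or ATTGG on the other strand) and the GC box (GGGCGGGG, or CCCCGCCC on the other strand). Hnrnpa0 (minus strand, chr13:58128557-58128806), Hnrnpa1 (plus strand, chr15:103240147-103240396), Hnrnpa2b1 (minus strand, chr6:51469895-51470144) and Hnrnpab (minus strand, chr11:51606882-51607131) read as follows.
Hnrnpa0: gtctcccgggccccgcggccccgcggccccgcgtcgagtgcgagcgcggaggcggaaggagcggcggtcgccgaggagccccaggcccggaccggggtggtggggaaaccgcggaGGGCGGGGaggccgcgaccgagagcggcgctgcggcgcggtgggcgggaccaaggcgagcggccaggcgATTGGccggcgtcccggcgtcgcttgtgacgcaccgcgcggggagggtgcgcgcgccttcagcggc
Hnrnpa1: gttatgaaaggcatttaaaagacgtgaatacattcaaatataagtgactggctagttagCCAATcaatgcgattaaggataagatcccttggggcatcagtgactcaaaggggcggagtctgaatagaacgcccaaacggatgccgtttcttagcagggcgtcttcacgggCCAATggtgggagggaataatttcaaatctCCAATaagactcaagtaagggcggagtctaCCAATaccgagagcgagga
Hnrnpa2b1: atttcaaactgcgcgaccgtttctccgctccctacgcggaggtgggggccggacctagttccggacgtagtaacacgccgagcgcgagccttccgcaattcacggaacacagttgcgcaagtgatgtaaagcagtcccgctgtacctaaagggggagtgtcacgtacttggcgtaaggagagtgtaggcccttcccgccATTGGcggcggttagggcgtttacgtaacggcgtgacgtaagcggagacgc
Hnrnpab: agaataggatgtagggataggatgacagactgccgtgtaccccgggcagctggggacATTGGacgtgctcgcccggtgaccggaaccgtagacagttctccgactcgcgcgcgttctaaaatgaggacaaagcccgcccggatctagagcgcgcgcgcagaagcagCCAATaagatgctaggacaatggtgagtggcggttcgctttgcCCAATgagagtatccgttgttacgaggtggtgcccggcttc
The Hnrnpa1 flank held 4 CCAAT boxes over both strands, the Hnrnpab flank 3, and the flanks of Hnrnpa0 and Hnrnpa2b1 held 1 each. A flank was found for 45 of the 51 genes. Only 10 of these were free of annotated exons and the other 35 held some exon bases, which were searched as well. Of the 45 flanks, 21 (46.7%) held a CCAAT box, against 33.8% of 32851 flanks of the same length. A GC box was found in 35.6% of the members' flanks and in 16.1% of all flanks. CCAAT boxes were found in 2 of 5 flanks of genes higher in NOD and in 4 of 5 flanks of genes lower in NOD. The other motifs searched on both strands were the ETS core (CCGGAAGT), found in 11.1% of the members' flanks and 2.9% of all flanks, the YY1 core (AAGATGGCG) in 0 and 0.6%, the NRF1 core (GCGCATGCG) in 4.4% and 1.4%, and the TATA box (TATAAA) in 11.1% and 12.4%. The 32851 flanks were not matched to the members for base content or expression, and the members' median GC content was 60.8%. A match of letters is a description and no evidence of binding.

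Splicing factor mRNA was abundant in every library, and members were called in both directions. The 51 genes summed to 11274 CPM in B6, 13455 CPM in NOD 1 and 14177 CPM in NOD 2. On this scale all genes together summed to 1.12 and 1.16 times B6 in the NOD libraries. All 51 passed the filter on low counts, and 2 of them, Hnrnph2 and Srsf12, had no read in B6 and passed through NOD alone. Genes were compared with the quasi-likelihood test of edgeR and called at a Benjamini-Hochberg adjusted p under 0.05 with at least a 2-fold change. In NOD, 6 members rose (Srsf7, Hnrnph2, Hnrnpll, Hnrnpa2b1, Sf3a3 and Snrpa1) and 6 fell (Srsf11, Hnrnpul2, Hnrnpa0, Hnrnpl, Hnrnpa1 and Snrpf), and 39 passed in neither direction. A gene that did not pass may still differ. An unadjusted p under 0.05 was found for 22 members, the 12 called ones among them, and for 5763 of all 14456 genes tested. Of all 14456 genes tested, 10.3% rose and 7.39% fell, 17.7% in all, against 11.8% in each direction and 23.5% in all among the members. Without Hnrnph2 and Srsf12 the counts were 5 and 6 of 49.

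Both NOD libraries lay above B6 for 25 members (49.0%) and below it for 20 (39.2%), beside 45.3% and 39.4% of all genes tested. For the remaining 6 members, Srsf9, Srsf12, Hnrnpd, Hnrnph1, Hnrnpr and Sf3a1, the B6 value did not lie outside the NOD values. The median log2 fold change was 0.10 over the members and 0.26 over all genes tested.

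These calls depended on the test and the scaling. With no filter on low counts edgeR called 0 members, although 22 had an unadjusted p under 0.05, and limma-voom also called 0 with 20 at that level, whereas DESeq2 called 8 up and 7 down. Scaling by total counts moved the median of all genes from 0.26 to 0.07 and the share of higher genes among all calls from 58.1% to 47.8%.

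**Figure D1:**
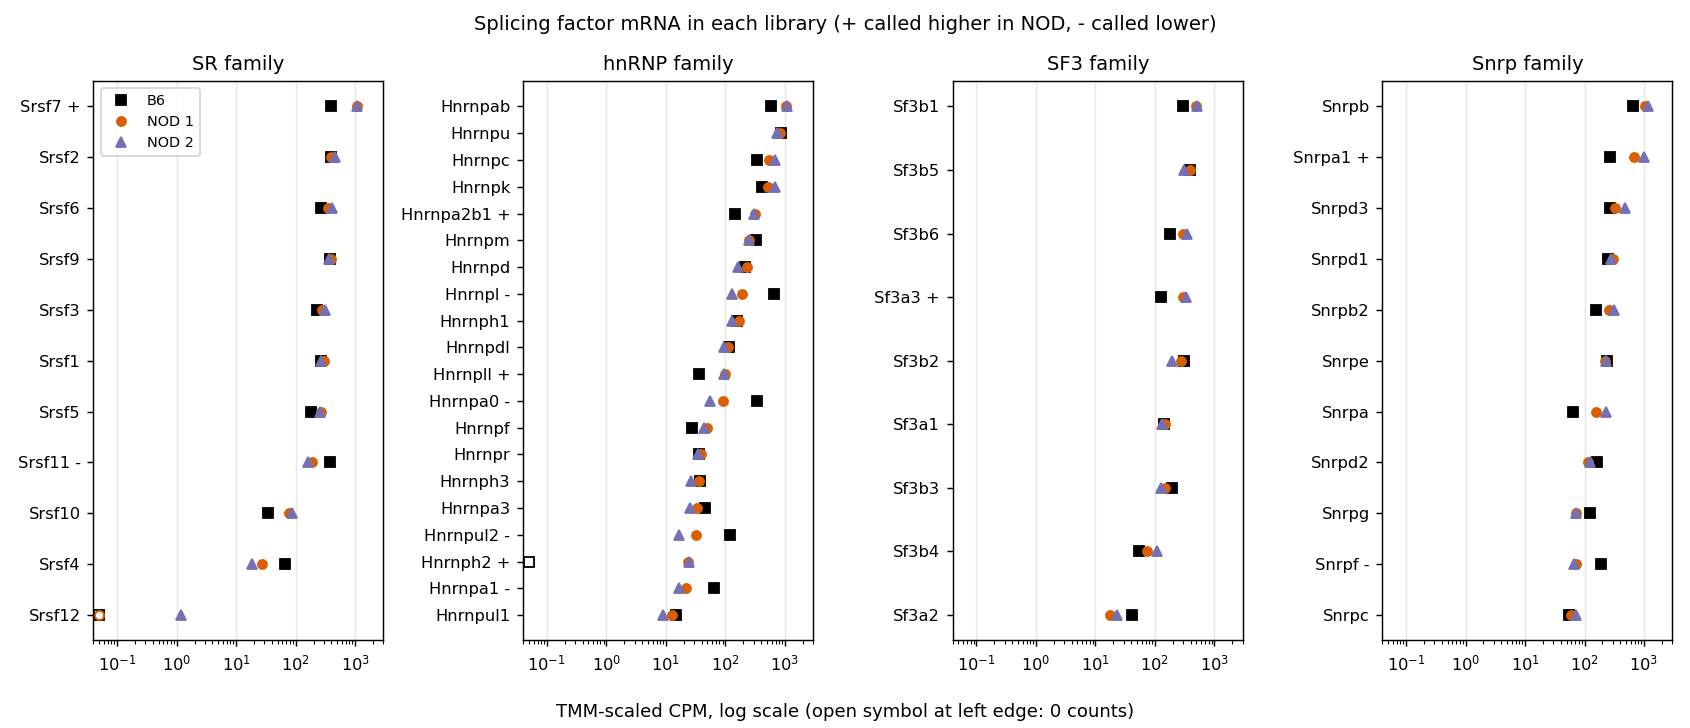
Level of each splicing factor mRNA in TMM-scaled CPM (log axis) in B6 (black squares), NOD 1 (orange circles) and NOD 2 (violet triangles), by family, with open symbols at the left edge for 0 counts. The NOD symbols of Srsf7, Hnrnpll, Hnrnpa2b1, Sf3a3 and Snrpa1 lie to the right of B6 and those of Hnrnpl, Hnrnpa0, Hnrnpul2, Hnrnpa1, Srsf11 and Snrpf to the left, while B6 is at 0 for Hnrnph2.

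Among the 11 SR genes, Srsf7 rose and Srsf11 fell in NOD, beside 10.3% and 7.39% of all genes tested. Srsf7 (chr17:80200080-80207305), a classical SR protein with a zinc knuckle that also takes part in mRNA export, was at 386 CPM in B6, 1061 CPM in NOD 1 and 1088 CPM in NOD 2. Both NOD libraries were high and nearly equal. The change was 2.79-fold, with a log2 fold change of 1.48 ± 0.20 (SE) and an adjusted p of 0.0240 by edgeR. Scaled to transcript length, Srsf7 went from 141 FPKM (CPM per kilobase of the listed transcript) in B6 to 389 and 399 FPKM in NOD, and from rank 17 among the 51 genes in B6 to rank 7 in each NOD library. It had the highest mean FPKM of the SR family over the 3 libraries, although Srsf9 (306 FPKM) and Srsf2 (209 FPKM) were above it in B6. Srsf7 and Srsf9 were counted on non-coding transcript records. The listed Srsf7 transcript has 2730 bases and the matched one in GENCODE 1991, so these ranks hold for the listed length only.

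Srsf11 (chr3:158010493-158036639), an SR protein found with U2AF at 3′ splice sites, was at 376 CPM in B6 against 186 and 161 CPM in NOD. The NOD values did not reach the B6 value. Its log2 fold change was -1.12 ± 0.23 (SE), with an adjusted p of 0.0412 by edgeR. The lowest log2 fold change of the family belonged to Srsf4, with 65.7 CPM in B6 and 26.96 and 18.4 CPM in NOD, and did not pass (-1.53 ± 0.40, adjusted p = 0.0620). Of its exon bases, 67.9% lie under the antisense gene Gm12992, and reads from the strands were counted together. Srsf10, which acts as a splicing repressor when dephosphorylated, was at 33.9 CPM in B6 and 76.4 and 88.3 CPM in NOD and did not pass either (1.28 ± 0.35, adjusted p = 0.0661).

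The other SR genes lay closer to B6. Srsf1, the founding member of the family, was at 262, 305 and 268 CPM in B6, NOD 1 and NOD 2. Srsf2, a core protein of nuclear speckles, was at 396, 397 and 451 CPM, and Srsf9 at 382, 397 and 361 CPM. Of the exon bases of Srsf2, 39.4% lie under the antisense genes Mettl23 and Mfsd11. Srsf3, Srsf5 and Srsf6 had log2 fold changes between 0.33 and 0.51, and none passed (adjusted p from 0.170 to 0.338). No read of Srsf12 was counted in B6 or NOD 1, and NOD 2 had 40. With 3 counts as the limit that a count of 0 allows, B6 could hold up to 0.220 CPM and NOD 1 up to 0.0908 CPM of Srsf12, against 1.18 CPM in NOD 2. The family's median log2 fold change was 0.33, and its summed level was 2587 CPM in B6 and 3347 and 3405 CPM in NOD.

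Of the 20 hnRNP genes, 3 were called higher, Hnrnph2 with its limit among them, and 4 lower in NOD, beside 17.7% of all genes in either direction. The sums were 4540 CPM in B6, 4665 CPM in NOD 1 and 4626 CPM in NOD 2, and the median log2 fold change was -0.11. With total counts the mean NOD sum was 0.900 times B6 and the median -0.30. Several close relatives went opposite ways.

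In the A/B type, whose flanks are printed above, Hnrnpa1 (chr15:103240397-103246698), which favours exon skipping and opposes SRSF1, was at 63.6 CPM in B6 against 21.6 and 16.4 CPM in NOD. It fell by 1.74 ± 0.38 on the log2 scale (adjusted p = 0.0446 by edgeR). Of the 50-base words of its transcript, 74.1% also occur in other genes, 20 in all, so its counts are uncertain. Hnrnpa0 (chr13:58125879-58128556), which shares no such word with another gene, was at 342 CPM in B6 against 91.6 and 55.8 CPM in NOD (-2.22 ± 0.36, adjusted p = 0.0282).

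Hnrnpa2b1 (chr6:51460435-51469894), which also carries mRNAs to distant parts of the cell, rose from 148 CPM in B6 to 313 and 300 CPM in NOD. The log2 fold change of 1.05 ± 0.24 was close to the 2-fold limit (adjusted p = 0.0470). Hnrnpab had the highest mean FPKM of the family over the 3 libraries, with 228 FPKM in B6, where Hnrnpl (306 FPKM) and Hnrnpu (235 FPKM) were above it, and 418 and 434 FPKM in NOD. Its adjusted p was 0.0443 with a 1.86-fold change, which is below the limit. Hnrnpa3, with 91.0% of its words shared with other genes, was at 45.7 CPM in B6 and 33.7 and 25.9 CPM in NOD, which did not pass (adjusted p = 0.284).

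Hnrnpl and Hnrnpll encode related proteins that bind CA-rich RNA, and the latter regulates exons of the CD45 gene in lymphocytes. Hnrnpl (chr7:28810890-28822266) was at 652 CPM in B6, 189 CPM in NOD 1 and 129 CPM in NOD 2. It fell by 2.03 ± 0.29 on the log2 scale (adjusted p = 0.0244 by edgeR), a level 4.09 times as high in B6. Hnrnpll (chr17:80029487-80062268) was at 36.8 CPM in B6 and 98.4 and 95.1 CPM in NOD, a rise of 1.40 ± 0.33 (adjusted p = 0.0495). Scaled to length, Hnrnpl exceeded Hnrnpll in every library, with 306 against 12.1 FPKM in B6, 88.9 against 32.4 FPKM in NOD 1 and 60.8 against 31.3 FPKM in NOD 2. Of the 12 calls, that of Hnrnpll had the highest adjusted p, and like the call of Hnrnpa2b1 it was lost in 5 of 8 other fits.

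Hnrnph2 (chrX:134601286-134607054), a member of the F/H type that binds runs of G, had no read in B6 and 767 and 844 reads in NOD. The NOD levels were 23.2 and 24.8 CPM, and against the 3 counts that a count of 0 allows in the B6 library their mean was at least 109-fold higher. The gene had passed the filter on low counts through NOD alone, so its call by edgeR adds nothing to these levels. Of 5961 genes at 20 CPM or more in both NOD libraries, 16 had no read in B6. Of the words of its transcript, 30.9% also occur in a pseudogene, Gm8775. The autosomal relative Hnrnph1 was at 156 CPM in B6 and 170 and 130 CPM in NOD (log2 fold change -0.06 ± 0.29, adjusted p = 0.890). Hnrnph3 was at 38.0, 36.5 and 26.7 CPM, and Hnrnpf at 27.2, 49.3 and 43.8 CPM (adjusted p = 0.638 and 0.192). Of the words of the Hnrnpf transcript, 66.8% also occur in other genes, 10 in all, so its counts are uncertain.

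Hnrnph2 starts 281 bases from Gla by the starts in the table. Gla encodes the lysosomal alpha-galactosidase A and runs the other way. Gla was at 34.1 CPM in B6 and 403 and 513 CPM in NOD (log2 fold change 3.75 ± 0.32, adjusted p = 0.0196), so both genes of this head-to-head pair rose. The nearby Timm8a1, Btk and Rpl36a were also higher in both NOD libraries and did not pass (adjusted p from 0.0759 to 0.457). The stretch of 53 bases between the annotated start of Gla and the RefSeq start of Hnrnph2 (GRCm38.p6, chrX:134601126-134601178, plus strand) is shown because both genes open onto it. RefSeq places the Hnrnph2 start 107 bases nearer to Gla than the table does. These 53 bases held none of the 6 motifs, while the whole flank of 250 bases, of which 197 lie in annotated exons, held 3 CCAAT boxes.
Hnrnph2 and Gla: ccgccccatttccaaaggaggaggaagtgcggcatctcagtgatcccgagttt
The libraries also differed in sex-linked RNA. The Y-linked Ddx3y was at 108 CPM in B6, 113 CPM in NOD 1 and 0 in NOD 2, and Xist at 19.9, 2.03 and 118 CPM. The part of this difference in the level of Hnrnph2 was not tested.

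Hnrnpul2 (chr19:8819401-8834142), a relative of the chromatin-bound Hnrnpu, was at 120 CPM in B6, 32.4 CPM in NOD 1 and 16.8 CPM in NOD 2. Its log2 fold change of -2.29 ± 0.48 was the lowest of the family (adjusted p = 0.0413 by edgeR), and it was also the called gene on which the NOD libraries differed most. Hnrnpu itself, the highest of the 51 genes in B6 by CPM, was at 860 CPM in B6 and 832 and 744 CPM in NOD (adjusted p = 0.654). Hnrnpc, which binds uridine tracts, did not pass, with 337 CPM in B6 and 541 and 686 CPM in NOD (adjusted p = 0.0751). Hnrnpk, which binds C-rich RNA, was at 419, 523 and 682 CPM (adjusted p = 0.196). Hnrnpm, Hnrnpd, Hnrnpdl, Hnrnpr and Hnrnpul1 had log2 fold changes between -0.46 and 0.04, and none passed.

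**Figure D2:**
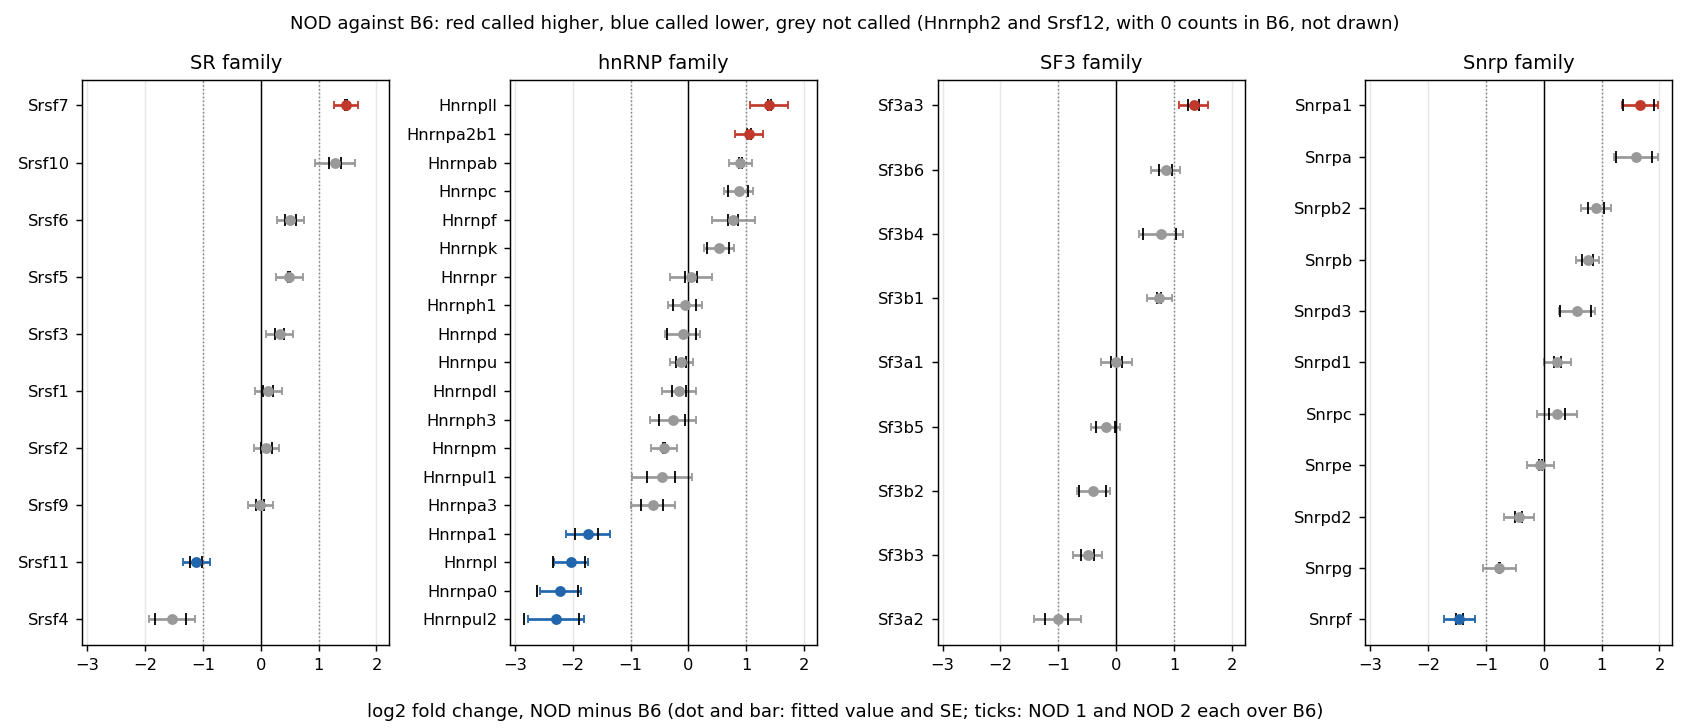
Fitted log2 fold change (NOD minus B6) of 49 splicing factor genes by family, with bars for the SE and ticks for each NOD library over B6, red for genes called higher, blue for genes called lower and grey for the rest. Called genes span -2.29 (Hnrnpul2) to 1.67 (Snrpa1), and the dotted lines mark the 2-fold limits.

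The 9 SF3 subunits gave 1 call, beside 17.7% of all genes tested in either direction. Sf3a3 (chr4:124714861-124732422), a subunit of SF3A, was at 125 CPM in B6 against 297 and 337 CPM in NOD, a rise of 1.34 ± 0.25 on the log2 scale (2.54-fold, adjusted p = 0.0351 by edgeR). Its partners in the same trimer did not follow it. Sf3a1 was at 140, 150 and 131 CPM (log2 fold change 0.00 ± 0.26), and Sf3a2 was lower in NOD without passing, with 41.6 CPM in B6 and 17.8 and 23.5 CPM in NOD (-1.01 ± 0.40, adjusted p = 0.134).

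No SF3B subunit passed. Sf3b1, the scaffold around the branch point helix, was at 301 CPM in B6 and 490 and 519 CPM in NOD (0.74 ± 0.22, adjusted p = 0.0750). Sf3b6, which contacts the branch point, was at 178, 296 and 347 CPM (0.86 ± 0.25, adjusted p = 0.0743). The small subunit Sf3b5 had the highest mean FPKM of the family by listed length, with 529, 523 and 414 FPKM, and did not differ detectably (adjusted p = 0.615). Its listed transcript has 731 bases and the matched one in GENCODE 3841, so this rank holds for the listed length only. Sf3b2 and Sf3b3 were lower and Sf3b4 higher in both NOD libraries (adjusted p from 0.199 to 0.348). The median log2 fold change over the 9 genes was 0.0018, and their sum was 1722 CPM in B6 and 2122 and 2089 CPM in NOD.

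Within the Snrp family, the 4 genes for proteins of the U1 or U2 particle, Snrpa, Snrpa1, Snrpb2 and Snrpc, were higher in both NOD libraries, and their median log2 fold change was 1.25. The 7 genes of the Sm ring had a median of -0.06, with 3 higher and 4 lower in both NOD libraries. Over all genes tested, both NOD libraries lay above B6 for 45.3% and below it for 39.4%. Only Snrpa1 and Snrpf passed among the 11 genes, beside 17.7% of all genes tested in either direction. The difference between particle and ring genes was not tested.

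Snrpa1 (chr7:66060336-66074587), the A′ protein of the U2 particle, was at 266 CPM in B6, 689 CPM in NOD 1 and 1003 CPM in NOD 2. The log2 fold change was 1.67 ± 0.32 (3.18-fold, adjusted p = 0.0354 by edgeR), the largest of the family. Scaled to length it was at 215 FPKM in B6 and 556 and 810 FPKM in NOD, rank 13 of the 51 genes in B6 and rank 2 in both NOD libraries. The U1 A protein gene Snrpa was at 63.9 CPM in B6 and 153 and 233 CPM in NOD and missed the threshold by a narrow margin (1.59 ± 0.37, adjusted p = 0.0501). Snrpb2, whose product pairs with the A′ protein on U2 RNA, was at 155, 262 and 317 CPM (0.90 ± 0.26, adjusted p = 0.0729). Snrpc, the U1 C protein, was at 55.3, 58.6 and 70.9 CPM (adjusted p = 0.640).

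In the Sm ring, Snrpf (chr10:93583029-93589658) was at 189 CPM in B6 and 71.6 and 65.8 CPM in NOD. It fell by 1.46 ± 0.27 on the log2 scale (adjusted p = 0.0342 by edgeR). Of its exon bases, 85.4% lie under the antisense genes Ccdc38 and 4933408J17Rik. Ccdc38 was at 129 CPM in B6 and 28.2 and 21.1 CPM in NOD, and 4933408J17Rik at 37.9, 12.8 and 12.1 CPM, and since reads were counted on both strands together the genes cannot be told apart there. Snrpg was at 122 CPM in B6 and 71.8 and 71.1 CPM in NOD without passing (adjusted p = 0.115).

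Snrpb, which had the highest mean FPKM of all 51 genes, was at 592 FPKM in B6 and 939 and 1063 FPKM in NOD (log2 fold change 0.76 ± 0.21, adjusted p = 0.0649). Snrpd3, whose listed transcript of 598 bases is shorter than the matched one of 3036 bases in GENCODE, was at 453, 548 and 799 FPKM and Snrpe at 488, 461 and 475 FPKM (adjusted p = 0.229 and 0.860). Snrpd1 and Snrpd2 had log2 fold changes of 0.24 and -0.43 (adjusted p = 0.461 and 0.268). The ring proteins occur in equal number in the assembled particle, while their mRNA changes ranged from -1.46 for Snrpf to 0.76 for Snrpb.

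Within the Snrp family, the Spearman rho of the log2 fold change was 0.82 against the length of the listed transcript and 0.67 against mean CPM, over 11 genes. With the length of the matched GENCODE transcript, an alternative chosen after seeing the data, it was 0.45. Against listed length it was -0.05 over the 51 genes and -0.18 over all genes tested. Against mean CPM the values were 0.26 and -0.16. The points share their libraries. By listed length Snrpa, Snrpa1 and Snrpb2 are the longest of the family, so for these particle genes particle and length cannot be told apart, while the particle gene Snrpc has 752 bases and the Sm ring gene Snrpb 1112.

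**Figure D3:**
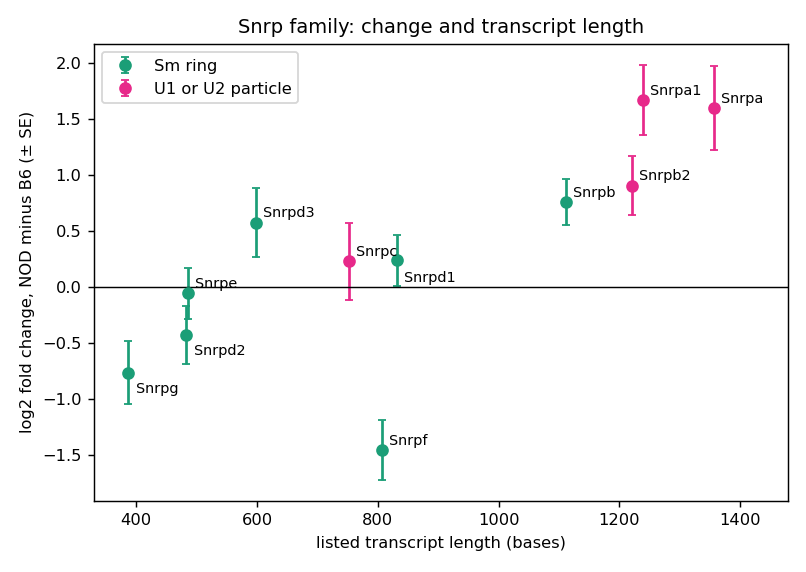
Log2 fold change (NOD minus B6, bars for SE) of the 11 Snrp genes against the length of the listed transcript in bases, with Sm ring genes in green and U1 or U2 particle genes in pink. The values go from -0.77 for Snrpg, the shortest, to 1.59 for Snrpa, the longest, with Snrpf (-1.46) below the rest.

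Other splicing genes were read from lists by step of the pathway. Of 192 tested, 17 (8.85%) rose and 28 (14.6%) fell in NOD, beside 10.3% and 7.39% of all genes, and their median log2 fold change was -0.18.

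Of 16 assembly factors of the Sm ring, 3 rose and 0 fell, and the median log2 fold change was 0.83. Both NOD libraries lay above B6 for 13 of them, beside 45.3% of all genes tested. Strap, a subunit of the SMN complex, was at 180 CPM in B6 and 669 and 774 CPM in NOD (2.004 ± 0.24, adjusted p = 0.0217 by edgeR). Snupn, the adaptor that returns assembled particles to the nucleus, was at 8.81 CPM in B6 and 62.5 and 68.6 CPM in NOD (2.90 ± 0.41, adjusted p = 0.0242), and Phax, the export adaptor of small nuclear RNA, also rose (1.55 ± 0.27, adjusted p = 0.0307). Smn1, the core of the complex, was at 193, 333 and 350 CPM and did not pass (adjusted p = 0.0680), and Prmt5, which methylates Sm proteins, was at 505, 254 and 261 CPM with an adjusted p of 0.0431 and less than a 2-fold change.

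Of 16 partners of the members at the 3′ splice site and branch point, 4 fell and 1 rose. Both NOD libraries lay below B6 for 11 of them, beside 39.4% of all genes tested. U2af2, the large subunit of U2AF that reads the polypyrimidine tract, was at 63.0 CPM in B6 and 12.4 and 12.0 CPM in NOD (-2.37 ± 0.36, adjusted p = 0.0261), and U2af1, the small subunit, fell by 1.64 ± 0.36 (adjusted p = 0.0444). The related U2af1l4 rose by 1.66 ± 0.31 (adjusted p = 0.0351). Sf1, which binds the branch point before SF3B, was at 281, 127 and 76.3 CPM and did not pass (adjusted p = 0.0553).

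None of the 20 hnRNP proteins of other names rose, and 6 fell. Ewsr1, an RNA-binding protein, was at 181 CPM in B6 and 40.4 and 46.3 CPM in NOD and fell by 2.07 ± 0.29 (adjusted p = 0.0241). The poly(C)-binding genes Pcbp1 and Pcbp2 also fell (-1.63 and -1.70). Ptbp1, a repressor that binds pyrimidine tracts, was at 101, 94.7 and 126 CPM (adjusted p = 0.773).

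Among 29 SR-related proteins and kinases of SR proteins, 1 rose and 6 fell. Srpk1, a kinase that sends SR proteins into the nucleus, rose by 1.20 ± 0.28 (68.8 CPM in B6, 156 and 161 CPM in NOD, adjusted p = 0.0481). Clk1, Clk4 and Srpk2, other kinases of SR proteins, did not pass (adjusted p from 0.0706 to 0.955). Srrm2, a scaffold of nuclear speckles, fell by 1.78 ± 0.23, and Tra2a fell by 1.27 ± 0.26 while its relative Tra2b was at 79.2, 78.5 and 102 CPM (adjusted p = 0.684).

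The list of exon junction and nonsense-mediated decay factors, which act on the poison exons of SR and hnRNP transcripts, gave 2 genes higher and 5 lower among 15. Upf1, the helicase of the decay pathway, was at 85.1 CPM in B6 and 28.4 and 17.5 CPM in NOD (-1.89 ± 0.43, adjusted p = 0.0468 by edgeR). Smg5 (-2.61) and Smg9 (-4.31) fell as well. Smg1, the kinase of Upf1, was at 136, 61.6 and 41.7 CPM and did not pass (adjusted p = 0.0589). The genes that rose were Magohb and Rbm8a, for 2 proteins of the core of the exon junction complex. The other core genes in the list, Eif4a3, Magoh and Casc3, did not pass (log2 fold changes of 0.71, -0.12 and -0.87).

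The remaining lists were mixed. Of 13 U particle proteins named Snrnp or listed with them 2 rose and 2 fell, among them Snrnp70, the U1 70K protein, which fell by 1.36 ± 0.29 (adjusted p = 0.0427) while the U1 A gene Snrpa was higher in both NOD libraries. The 10 LSm genes gave 1 higher (Lsm8), the 10 minor spliceosome genes 1 higher (Snrnp25), and the 44 Prp proteins and helicases 6 higher and 2 lower. Prpf19, a ubiquitin ligase of the catalytic spliceosome, was at 136 CPM in B6 and 10.95 and 10.6 CPM in NOD (-3.66 ± 0.33, adjusted p = 0.0196). Of 19 tissue-restricted regulators, 3 fell and 0 rose.

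**Figure D4:**
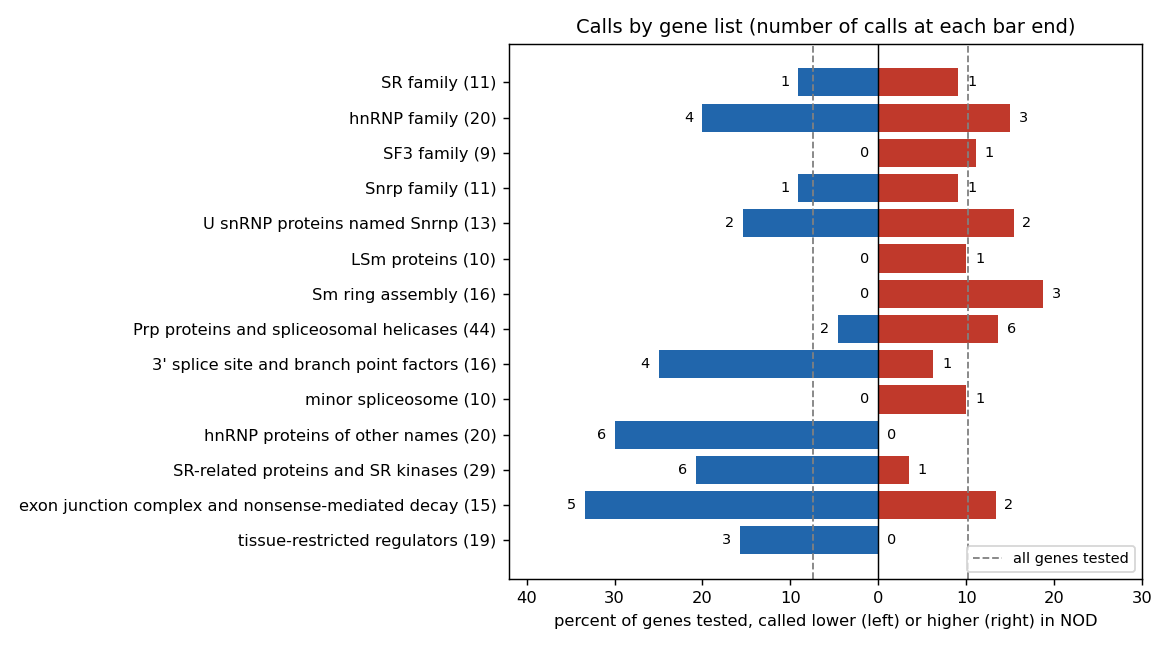
Percent of tested genes in each list called higher (red, right) or lower (blue, left) in NOD, with the number tested in parentheses, the number of calls at the bar ends and dashed lines for all genes tested (10.3% and 7.39%). The list of hnRNP proteins of other names and the decay list reach farthest to the left, with 6 of 20 and 5 of 15 genes.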

How the data were processed

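The labels and the study's methods describe SMART-Seq V4 cDNA amplified in 19 PCR cycles and read as 50-base single ends. The authors mapped the reads with STAR (2.2.0c in the submitters' processing notes, another version in the methods, mm10) and used HOMER to count them on exons of RefSeq genes. The deposited values are raw counts, 1 transcript per gene, both strands together. The treatment of reads with several alignments is not given in the sources used here. For Srsf3, Srsf7, Srsf9 and Hnrnpa1 (4 members) the transcript is a non-coding record.

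Counts were analysed in R 4.3.3 with edgeR 4.0.16 (filterByExpr with a minimum count of 10, TMM factors of 1.09, 0.975 and 0.941, trended dispersion, quasi-likelihood test, Benjamini-Hochberg adjustment over 14456 genes). DESeq2 1.42.0 and limma 3.58.1 served as alternatives. CPM uses TMM-scaled library sizes, and FPKM divides it by the listed length. Reads carry no molecular identifiers, so the floor of 3 counts covers counting error only. The NOD libraries differed by a chi-square per degree of freedom of 91.9. On simulated data for this comparison (13862 genes), the test called 17 of 100 genes changed by 1.5 and 85 of 100 changed by 3 on the log2 scale. Only these genes were changed in the simulation, whereas 17.7% of all genes tested were called in the real data. The adjustment depends on the share of changed genes, so these rates do not give the power of the real comparison. Shared 50-base words and exon overlaps were computed from GENCODE M21. Members and lists were chosen with earlier results of these data known, and no list was tested. Genes named by rule were all called members, the highest by mean FPKM and the largest changes of each family, members with B6 between the NOD libraries, up to 4 called genes with a mean of at least 10 CPM per other list, and fixed partners such as Upf1. Further members, a few other genes (Gla, Timm8a1, Btk, Rpl36a, Lsm8, Snrnp25, Snrnp70, Magohb, Rbm8a, Eif4a3, Magoh, Casc3, Ddx3y and Xist) and the markers were named with their values known.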

Additional observations from a re-analysis of the deposited data

How the results depend on the processing

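Both NOD libraries lay on the same side of B6 for all 12 called members. Leaving out either one therefore had to keep their direction and is no separate support. The numbers of members higher and lower (6 and 6) became 3 and 3 with upper-quartile factors, and 0 and 0 with no filter on low counts and in limma-voom, where the smallest adjusted p over all genes was 0.0649 and 0.0501. All members called with upper-quartile factors were among the 12. Snrpa and Srsf4 passed in 3 of 8 other fits and Srsf10 in 2, while the calls of Hnrnpll and Hnrnpa2b1 were lost in 5. The other splicing genes (17 higher, 28 lower) gave 8 higher with total counts, 8 and 14 with upper-quartile factors, 48 lower with a stricter filter of 50 counts in 2 libraries, 47 lower in DESeq2, and 0 and 0 with no filter and in limma-voom (92 and 88 genes at an unadjusted p under 0.05). Over all genes (1483 higher, 1069 lower) the counts were 701 lower with upper-quartile factors, 2405 and 1918 with the stricter filter, 2346 and 1864 in DESeq2, and 0 and 0 with no filter and in limma-voom (5568 and 3924 genes at that level). The common dispersion of edgeR, chosen after seeing the data, called 7 and 7 members. The cause of these differences was not tested.

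With total counts the median log2 fold change was -0.090 over the members, 0.14 for SR, -0.30 for hnRNP, -0.18 for SF3 and 0.052 for Snrp genes, and with the stricter filter 0.019 over the members and 0.18 for SR genes. Leaving out a NOD library gave medians of 0.032 to 0.12 over the members, 0.22 to 0.40 for SR, -0.28 to 0.04 for hnRNP, -0.10 to 0.09 for SF3 and 0.28 to 0.36 for Snrp genes. The summed CPM of NOD over B6 was 1.31 for SR, 1.02 for hnRNP, 1.22 for SF3 and 1.52 for Snrp genes. DESeq2 size factors gave 1.27, 0.996 and 1.19 and total counts 1.15, 0.900 and 1.08 for the SR, hnRNP and SF3 genes, and upper-quartile factors gave 1.03 for hnRNP genes. Leaving out a NOD library gave 1.29 to 1.32 for SR, 1.02 to 1.03 for hnRNP, 1.21 to 1.23 for SF3 and 1.37 to 1.67 for Snrp genes. No paired analysis was possible because the B6 group has 1 library. Depth limits Hnrnph2 and Srsf12, where the B6 library allows up to 0.220 CPM.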
